A study of Mus musculus with 6 samples.

Results

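Striatal projection neurons, the GABAergic output cells of the striatum, lie beneath the ependyma and subventricular zone of the lateral ventricle, and 10 of their marker genes were followed here in laser-captured ependymal tissue. The genes were Drd2, Penk, Ppp1r1b, Adora2a, Tac1, Rgs9, Gng7, Bcl11b, Foxp1 and Meis2, read at the brightest probe set that names 1 gene. They were chosen with earlier results of these data known, so counts of members set beside all genes are not independent of the data. Of the 10, 9 were measured among the 19938 genes tested, each by 1 probe set, and Adora2a, an adenosine receptor of the indirect pathway, was not analysed here.

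Tissue was taken from mouse brains that carried a FoxJ1-EGFP reporter in both genotypes, by laser capture of the domain with EGFP signal. The 6 Affymetrix arrays held FoxJ1 null tissue of postnatal days 1, 7 and 14 and wildtype tissue of the same 3 ages, with 1 array for each genotype and age. Foxj1 encodes a forkhead protein needed to build motile cilia. The labels do not say how the null allele was made, or whether an array stood for 1 animal or a pool, so p-values measure only the spread between these arrays. No genotype and age had a second array. In the fit of genotype and age, that spread is how far the genotype difference varied between ages, which limma moderates with the values of all genes. In captured tissue, fewer cells of a type and less RNA per cell cannot be told apart.

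Striatal projection neurons form 2 output pathways. Cells of the direct pathway carry the D1 dopamine receptor and release substance P and dynorphin, and cells of the indirect pathway carry the D2 dopamine receptor and an adenosine receptor and release enkephalin. The D1 and adenosine receptors act through the G protein subunit G alpha olf on adenylyl cyclase 5, the D2 receptor opposes them through Gi, and the phosphoprotein DARPP-32 lies downstream in both pathways. Bcl11b, Foxp1 and Meis2 encode transcription factors at work from the embryonic stages of striatal neurons.

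The captures held ependymal RNA and that of neurons. Averaged over 10 ependymal markers, the log2 level lay between 6.80 and 6.89 on the null arrays and between 7.82 and 8.0 on the wildtype arrays, and 7 of the 10 were called lower in the null by limma (median log2 difference -1.05). Foxj1 itself stayed between 6.89 and 6.95 in the null, against log2 levels of 7.24 to 7.72 in wildtype tissue. Over 12 markers of neurons of any kind the mean log2 level ran from 10.87 to 11.29 on null and from 10.95 to 11.35 on wildtype arrays. Although the title of the series names male mice, Xist was high on 2 arrays, at 12.35 on null day 7 and 12.40 on wildtype day 1, against 5.37 to 5.83 on the others, where Eif2s3y, Kdm5d and Uty, all Y-linked, were high. For the members, the counts called by genotype and for day 14 against day 1 are given with and without both of these arrays. Of single members, only some genotype differences are given without both. Differences at days 1 and 7, comparisons with day 7, slopes and correlations were not computed without both.

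Promoters are shown for 2 members whose level rose with age, Tac1 and Rgs9, and for the 2 whose level fell, Bcl11b and Foxp1, so that the sequences at the start of genes with opposite courses can be compared. The sequences are RefSeq windows of build GRCm38.p6, from 250 bases before to 50 bases after a start site, written 5′ to 3′ in the direction of the gene, and 7 members had 1 or more windows. Capitals mark 3 motifs on either strand, the core CGTCA of the cyclic AMP response element, the GC box GGGCGG and the TATA box TATAAA, and no base of these windows belonged to more than 1 of them. Foxp1 had 3 windows, of which the one farthest upstream is shown.
Tac1, chr6:7554811-7555110, plus strand: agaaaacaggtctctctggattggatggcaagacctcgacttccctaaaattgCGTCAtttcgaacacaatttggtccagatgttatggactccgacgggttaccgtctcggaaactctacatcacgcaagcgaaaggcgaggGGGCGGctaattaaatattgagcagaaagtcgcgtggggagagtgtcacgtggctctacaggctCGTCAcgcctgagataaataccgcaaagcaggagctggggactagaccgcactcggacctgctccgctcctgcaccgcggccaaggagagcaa
Rgs9, chr11:109298132-109298431, minus strand: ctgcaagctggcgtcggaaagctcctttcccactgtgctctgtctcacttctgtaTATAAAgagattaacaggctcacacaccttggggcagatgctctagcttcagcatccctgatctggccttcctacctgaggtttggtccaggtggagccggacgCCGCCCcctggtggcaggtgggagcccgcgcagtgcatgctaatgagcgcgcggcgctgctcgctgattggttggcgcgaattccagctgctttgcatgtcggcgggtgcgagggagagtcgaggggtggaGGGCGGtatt
Bcl11b, chr12:108003365-108003664, minus strand: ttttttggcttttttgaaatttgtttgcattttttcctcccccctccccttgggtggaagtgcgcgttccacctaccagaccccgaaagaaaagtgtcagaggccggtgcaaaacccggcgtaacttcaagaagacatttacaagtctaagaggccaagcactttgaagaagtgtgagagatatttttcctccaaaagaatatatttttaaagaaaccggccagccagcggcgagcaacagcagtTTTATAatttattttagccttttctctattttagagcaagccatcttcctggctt
Foxp1, chr6:99520944-99521243, minus strand: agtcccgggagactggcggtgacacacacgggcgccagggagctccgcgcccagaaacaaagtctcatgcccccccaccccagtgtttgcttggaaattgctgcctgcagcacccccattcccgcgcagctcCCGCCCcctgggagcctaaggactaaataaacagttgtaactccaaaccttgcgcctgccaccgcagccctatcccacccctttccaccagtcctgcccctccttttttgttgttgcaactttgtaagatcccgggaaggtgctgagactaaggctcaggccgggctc

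The Tac1 window held 2 CGTCA motifs and 1 GC box, and the Rgs9 window 2 GC boxes and 1 TATA box. In the Bcl11b window the search found 1 TATA box, and in the Foxp1 window shown 1 GC box. Of the Foxp1 windows not shown, 1 held 1 CGTCA motif and 3 GC boxes, and the other held 0 of each motif. What is seen for Foxp1 thus depends on the window. Of 32851 windows of the same length, 20.8% held CGTCA, 35.7% the GC box and 13.6% the TATA box. These matches describe letters in a window and were not linked to any measurement.

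The neuropeptide genes were higher at day 14 than at day 1 in both genotypes. Penk, the precursor of the enkephalins of the indirect pathway, had log2 levels of 9.85, 10.00 and 12.14 in null tissue of days 1, 7 and 14, against 9.32, 10.36 and 11.90 in wildtype tissue. Both day 14 arrays stood above all arrays of the earlier days. The fitted log2 difference between days 14 and 1 was 2.44 ± 0.19 (limma SE), a 5.41-fold rise, with an adjusted p of 0.000118 over all genes.

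Tac1, the substance P precursor of the direct pathway, read 8.98, 9.26 and 10.26 on the log2 scale in null tissue at days 1, 7 and 14, and 8.64, 8.85 and 9.74 in wildtype tissue. The null array was the higher one of its pair at each age, while the groups overlapped across ages. Its log2 level rose by 1.19 ± 0.12 (SE) between days 1 and 14, or 2.29-fold (limma adjusted p = 0.000435).

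Drd2 encodes the inhibitory dopamine receptor of the indirect pathway, coupled to Gi. On the null arrays its log2 level was 9.49, 9.05 and 10.12 at days 1, 7 and 14, and on the wildtype arrays 9.16, 9.27 and 9.30. The null day 14 array was the highest and the null day 7 array the lowest of the 6. Across genotypes the log2 difference of day 14 from day 1 was 0.38 ± 0.21 (SE), and limma did not call it (adjusted p = 0.287). Without the null day 14 array it was -0.0036, and without the wildtype day 14 array 0.76 (adjusted p = 0.0215).

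Of the signalling genes, Ppp1r1b encodes DARPP-32, which inhibits protein phosphatase 1 once protein kinase A has phosphorylated it. Null tissue gave 9.91, 9.79 and 11.46 for its log2 level at days 1, 7 and 14, and wildtype arrays 9.33, 10.05 and 10.37. Both day 14 arrays exceeded the 4 earlier ones, and the null day 14 array stood 1.09 above its wildtype partner on the log2 scale, a 2.13-fold difference between 2 arrays. Between days 14 and 1 the gene rose by 1.29 ± 0.25 (SE) on the log2 scale (2.45-fold, limma adjusted p = 0.00942).

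Rgs9 encodes a GTPase-activating protein whose striatal form shortens dopamine receptor signals. Its log2 level was 9.67, 9.87 and 11.22 in null and 9.50, 9.88 and 10.38 in wildtype tissue at days 1, 7 and 14. The 2 day 14 arrays again lay above the rest, and the genotypes were level at day 7. The log2 rise from day 1 to day 14 was 1.21 ± 0.19 (SE), 2.32-fold (limma adjusted p = 0.00309).

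Gng7, the gamma subunit that assembles with G alpha olf, had log2 levels of 10.60, 10.41 and 11.39 in null tissue and 10.26, 10.62 and 10.56 in wildtype tissue of days 1, 7 and 14. Here the null day 14 array alone stood apart. That array was the highest of the 6 for 6 members, Drd2, Penk, Ppp1r1b, Tac1, Rgs9 and Gng7, as for 16.4% of all genes. The log2 difference of day 14 from day 1 was 0.55 ± 0.21 (SE) and was not called (limma adjusted p = 0.121), though it passed without either day 7 array (adjusted p = 0.0313) or without the wildtype day 14 array (0.93, adjusted p = 0.00484).

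The transcription factors took another course. Bcl11b, also called Ctip2, which is needed for the maturation of striatal projection neurons and is also expressed in deep-layer cortical neurons, read 10.79, 10.12 and 9.92 on the log2 scale in null tissue at days 1, 7 and 14, and 10.53, 10.26 and 9.41 in wildtype tissue. Both day 1 arrays were the highest of the 6. Its log2 level fell by 0.99 ± 0.16 (SE) from day 1 to day 14, 1.99-fold (limma adjusted p = 0.00367).

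Foxp1 encodes a forkhead factor of striatal, cortical and other cells. Log2 levels were 10.97, 10.36 and 10.32 in null tissue of days 1, 7 and 14, beside 10.63, 10.31 and 9.52 in wildtype tissue. The day 1 arrays were the 2 highest and the wildtype day 14 array the lowest. Foxp1 fell by 0.88 ± 0.17 (SE) on the log2 scale between days 1 and 14, 1.84-fold (limma adjusted p = 0.00989), and was no longer called without the wildtype day 14 array (-0.57, adjusted p = 0.0874) or with genotype left out of the model (adjusted p = 0.0522).

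Meis2, a homeobox factor of the lateral ganglionic eminence that neuroblasts of the subventricular zone also express, varied least. It read 12.39, 12.19 and 12.25 in null tissue at days 1, 7 and 14 and 12.57, 12.44 and 12.49 in wildtype tissue on the log2 scale. All 3 null arrays lay below all 3 wildtype arrays, as for 4.39% of all genes, and 0 members had the opposite order (1.76% of all genes). The log2 difference of day 14 from day 1 was -0.11 ± 0.12 (SE, limma adjusted p = 0.641).

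**Figure D1:**
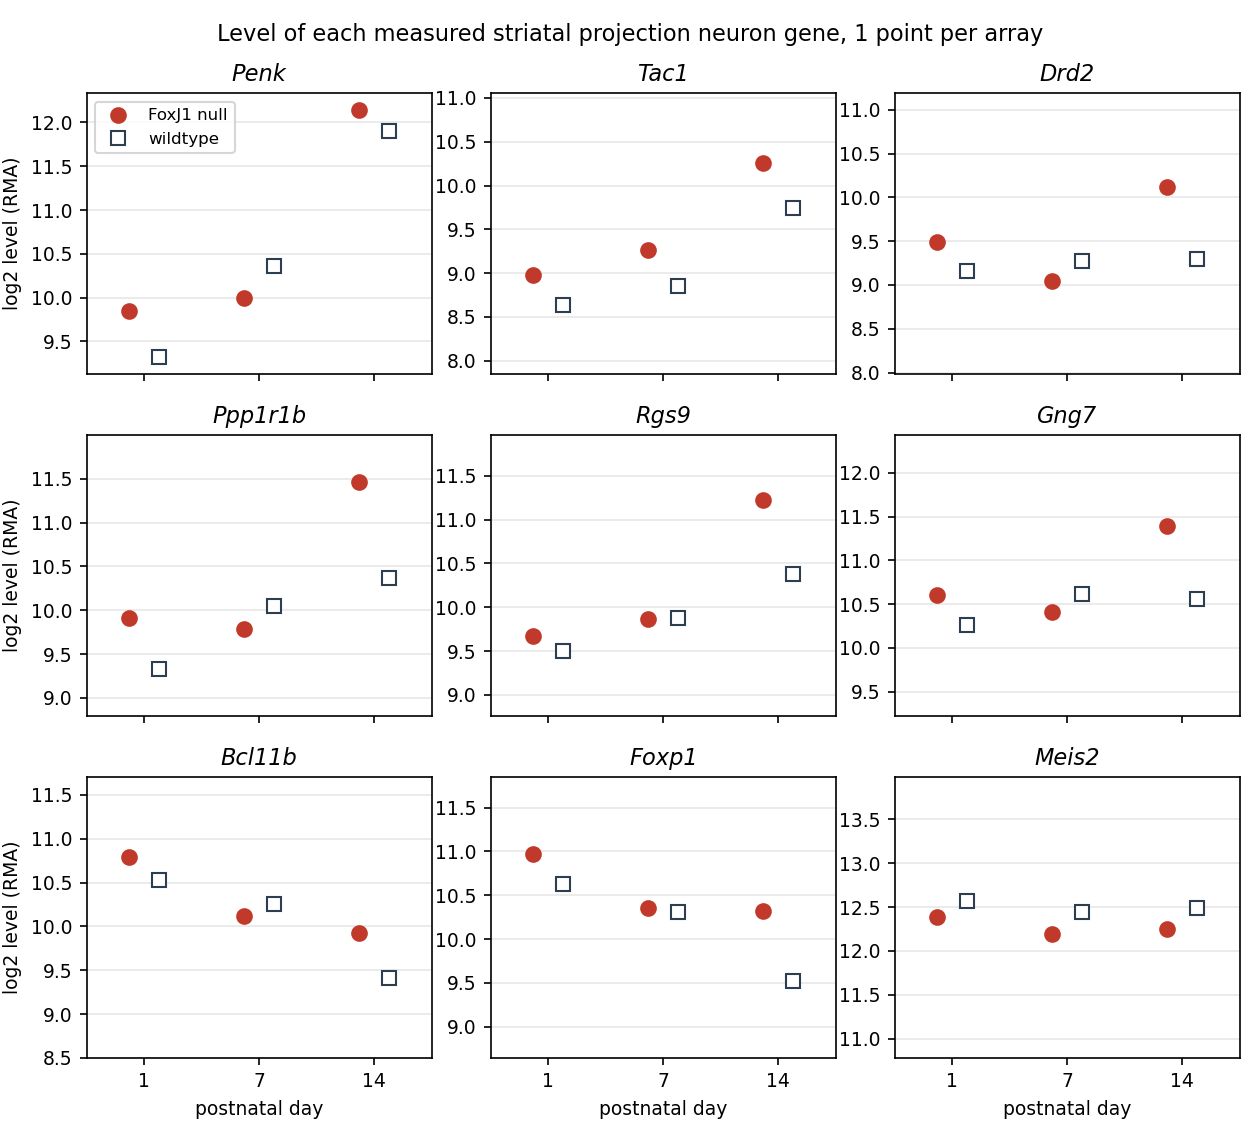
Log2 RMA level of the 9 measured genes (vertical axis, the same span in each panel) against postnatal day, with 1 filled circle per FoxJ1 null array and 1 open square per wildtype array. Penk, Tac1, Ppp1r1b and Rgs9 lie higher at day 14 than at day 1 in both genotypes, and Bcl11b and Foxp1 lie lower.

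The members that rose with age encode peptides and signalling proteins, and those that fell encode transcription factors. Between days 1 and 14, 4 of the 9 measured members rose (Penk, Tac1, Ppp1r1b and Rgs9), where 7.5% of all genes tested were called higher, and 2 fell (Bcl11b and Foxp1), where 6.29% were called lower (13.8% in either direction). Drd2, Gng7 and Meis2 did not pass. The members' median log2 difference was 0.55, against -0.01 over all genes. In the same 4 genes both day 14 arrays exceeded both day 1 arrays (25.5% of all genes), and in the same 2 both lay below (29.4% of all genes). The count of members called higher was 4 with Xist as a covariate and also without the 2 high-Xist arrays with day as a linear term, and the count called lower was 2 in both. Without the wildtype day 14 array 6 members were called higher and 1 lower, and with genotype left out of the model 4 and 1.

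For the 4 members that rose, the greater part of the log2 difference lay after day 7 when both genotypes were fitted together. For Ppp1r1b the single arrays of the genotypes did not share this course. The wildtype array stood 0.72 above day 1 at day 7 and 1.03 at day 14 (log2). On those arrays most of the rise thus came before day 7. In null tissue the same log2 differences were -0.12 and 1.55. Each value compares single arrays, of which wildtype day 1 and null day 7 had high Xist. This contrast was not tested, and the slope difference of Ppp1r1b between the genotypes was not called (0.57 ± 0.53, SE). Between days 14 and 7, 3 members were called higher, Penk (1.84 ± 0.19, adjusted p = 0.00152), Tac1 (0.95 ± 0.12, adjusted p = 0.00486) and Rgs9 (0.92 ± 0.19, adjusted p = 0.0269), as log2 differences with limma SE, where 2.34% of all genes were called higher and 4.21% in either direction. Ppp1r1b had a similar log2 difference, 1.00 ± 0.25, that missed the threshold (adjusted p = 0.0612), and 0 members were called lower (1.87% of all genes). The 7 members with an unadjusted p below 0.05 in this comparison (18.2% of all genes) included Bcl11b (-0.53) and Foxp1 (-0.41) on the falling side. The count called higher was 6 without the wildtype day 7 or day 14 array, 2 without either of the null arrays of those days, 2 with Xist as a covariate and 1 with genotype left out of the model. Between days 7 and 1 no member was called (0 of 9), and 0.0602% of all genes were, 0.0552% higher and 0.00502% lower. In that step 3 members and 10.6% of all genes had an unadjusted limma p below 0.05. The log2 differences of that step ran from -0.47 for Bcl11b to 0.59 for Penk.

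Between the genotypes no member passed (0 of 9 by limma), where 0.672% of all genes were called, 0.667% lower and 0.00502% higher in the null. An unadjusted limma p below 0.05 was found for 3 members and for 5.92% of all genes. The mean log2 difference over the 3 ages, null minus wildtype, was positive for 8 members, and for 9010 of all 19938 genes. The members' median was 0.32 against -0.01 over all genes. Without either day 14 array that median was 0.0823, still with 8 positive and 0 called. Tac1 had a difference of 0.42 ± 0.09 (SD, n = 3 pairs of arrays), with the null array higher at 3 of 3 ages and a limma adjusted p of 0.187. Foxp1 also had the null array higher at each age, so that 2 members had this order, which 7.9% of all genes showed. Ppp1r1b had 0.47 ± 0.68 (SD, n = 3, adjusted p = 0.835) and Foxp1 had 0.39 ± 0.38 (SD, n = 3, adjusted p = 0.663). Meis2 was the exception in sign, at -0.22 ± 0.03 (SD, n = 3, adjusted p = 0.838). Without the 2 high-Xist arrays and with day linear, the members' median log2 difference was 0.54, with 8 positive and 0 called. Among the members with larger values than in the fit of all arrays were Drd2 (0.64), Ppp1r1b (0.79) and Tac1 (0.64). Ppp1r1b passed when either day 7 array was left out (0.835, adjusted p = 0.0406), a fit in which the other day 7 array no longer informs the genotype term.

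For most members the sign of the difference was another at day 7 than at days 1 and 14. In 6 of the 9 members (Drd2, Penk, Ppp1r1b, Rgs9, Gng7 and Bcl11b) the null array was above its wildtype partner at days 1 and 14 and below it at day 7, a pattern held by 19.1% of all genes. Each such difference is that of a single pair of arrays, without replicates, and was not tested.

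At day 14 the null array was higher by a log2 difference of at least 0.5 (1.41-fold) for 7 of 9 members, against 1.5% of all genes, a threshold chosen after the values were seen. Ppp1r1b differed by 1.09, Rgs9 and Gng7 by 0.83 each, Drd2 by 0.82, Foxp1 by 0.81, Tac1 by 0.52 and Bcl11b by 0.51, while Penk (0.24) and Meis2 (-0.23) were nearer to 0. In all, 8 of 9 lay above 0 (44.6% of all genes), and 0 lay at or under -0.5 (1.86% of all genes). At day 1 the members' median log2 difference was 0.34, with 8 of 9 above 0 (55.5% of all genes) and 2 past that threshold, Ppp1r1b (0.58) and Penk (0.53), against 2.13% of all genes, and 0 past it on the lower side (4.18%). At day 7 the median was -0.21, with 7 of 9 below 0 (63.4% of all genes), 2 above it (36.6%) and none past the threshold in either direction, against 0.863% of all genes above it and 2.31% below. The high-Xist array of the pair was thus the lower one for 8 of 9 members at day 1 and for 7 of 9 at day 7, while neither day 14 array had high Xist.

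**Figure D2:**
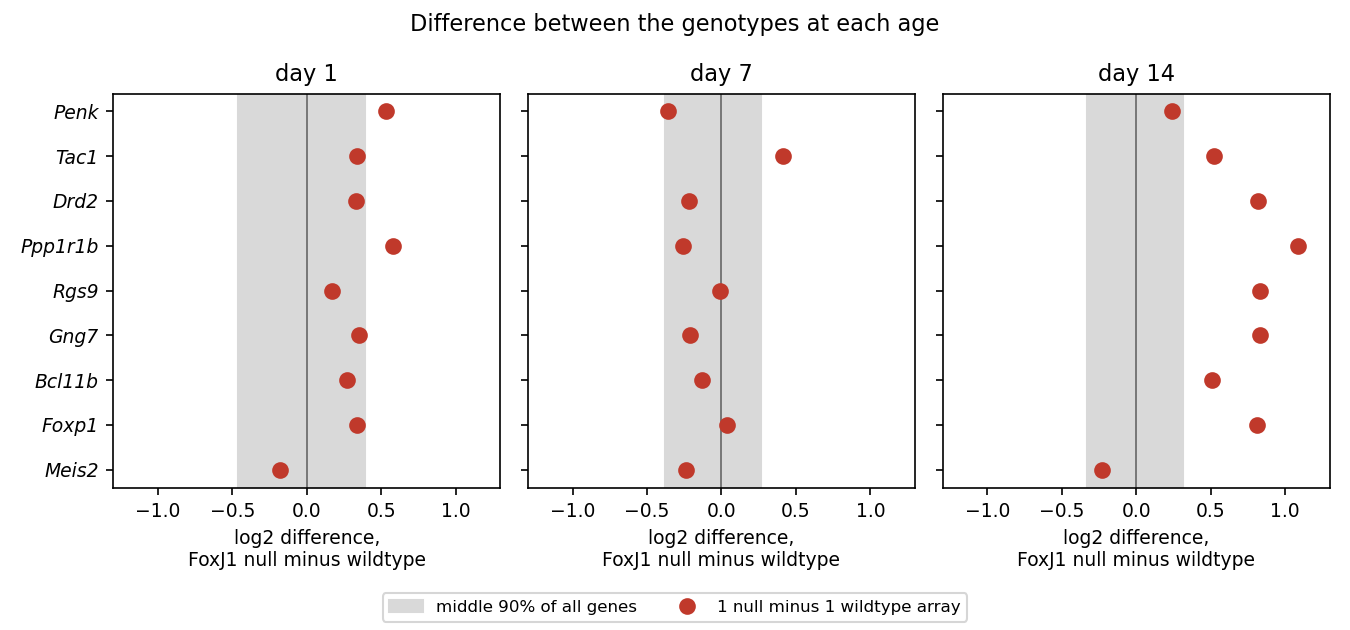
Log2 difference between the FoxJ1 null and the wildtype array (horizontal axis) for each measured gene at days 1, 7 and 14, with the range from the 5th to the 95th percentile of all genes shaded. At day 14, 7 of the 9 points lie beyond 0.5, and at day 7 most lie just below 0.

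A difference in the course with age between the genotypes was not detected. Fitted as straight lines, the null minus wildtype difference in the change over 13 days was 0.69 ± 0.38 (SE) for Rgs9, 0.57 ± 0.53 for Ppp1r1b, 0.53 ± 0.47 for Drd2 and 0.52 ± 0.42 for Gng7 on the log2 scale, each with a limma adjusted p of 1. Of the 9 members 0 were called, as were 0% of all genes, and 0 had an unadjusted limma p below 0.05 (2.99% of all genes). In the other members the log2 difference was 0.49 for Foxp1, 0.26 for Bcl11b, 0.19 for Tac1, -0.05 for Meis2 and -0.25 for Penk. The median over members was 0.49, and it was -0.51 without the null day 14 array.

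Other striatal genes were examined in 5 lists. Of their 35 measured genes, 15 rose and 6 fell between days 1 and 14, and their median log2 difference was 0.28. Of all genes tested, 7.5% were called higher and 6.29% lower (13.8% in either direction). These shares stand beside the counts of each list below for the same comparison. Without the null day 14 array 9 were called higher and 6 lower, and without the 2 high-Xist arrays, with day as a linear term, 15 and 4. With that linear term and all 6 arrays the counts were 15 and 5.

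In the direct pathway list all 5 genes passed. Drd1, the D1 receptor, rose by 0.79 ± 0.16 (log2, SE), Pdyn, the dynorphin precursor, by 0.77 ± 0.12 and Chrm4, an inhibitory muscarinic receptor, by 0.69 ± 0.17. The transcription factors Isl1 and Ebf1 of the same pathway fell by 0.87 ± 0.14 and 1.39 ± 0.19 on the log2 scale. In this list the 2 receptors and the peptide gene were higher and the 2 transcription factors lower at day 14.

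In the indirect pathway list 1 of 4 rose, the orphan receptor Gpr52 (0.93 ± 0.13, log2 difference and SE). Gpr6, another orphan receptor of these cells, had a log2 difference of 0.58 ± 0.20 that did not pass (limma adjusted p = 0.0869). Among 11 genes of striatal cyclic AMP and G protein signalling 6 rose and 0 fell. These were Rasd2 (1.71), a small GTPase also called Rhes, Rgs7bp (1.07) and Gnb5 (0.96), the anchor and the beta subunit that bind Rgs9, Pde1b (0.82), a phosphodiesterase, Adcy5 (0.74), the adenylyl cyclase, and Arpp21 (0.72), a cyclic AMP regulated phosphoprotein, all as log2 differences. Gnal, which encodes G alpha olf, had a log2 difference of -0.05 ± 0.19 (SE, limma adjusted p = 0.899).

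Of 7 channel and synapse genes 5 rose and 1 fell. Scn4b, a sodium channel beta subunit, had a log2 difference of 1.40 ± 0.32 (SE), and the actin crosslinker Actn2, the potassium channel partner Kcnip2, the calcium sensor Hpca and the scaffold Strn had log2 differences of 1.3, 1.15, 1.09 and 0.66. Cnr1, the cannabinoid receptor, fell by 0.80 ± 0.13 on the log2 scale. Among 8 further transcription factors 0 rose and 3 fell, Gsx2 by 0.75, Foxp2 by 0.67 and Ikzf1 by 0.55 on the log2 scale, and 7 of the 8 had a negative value. Gsx2 and Ikzf1 lay below the median level of all genes.

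**Figure D3:**
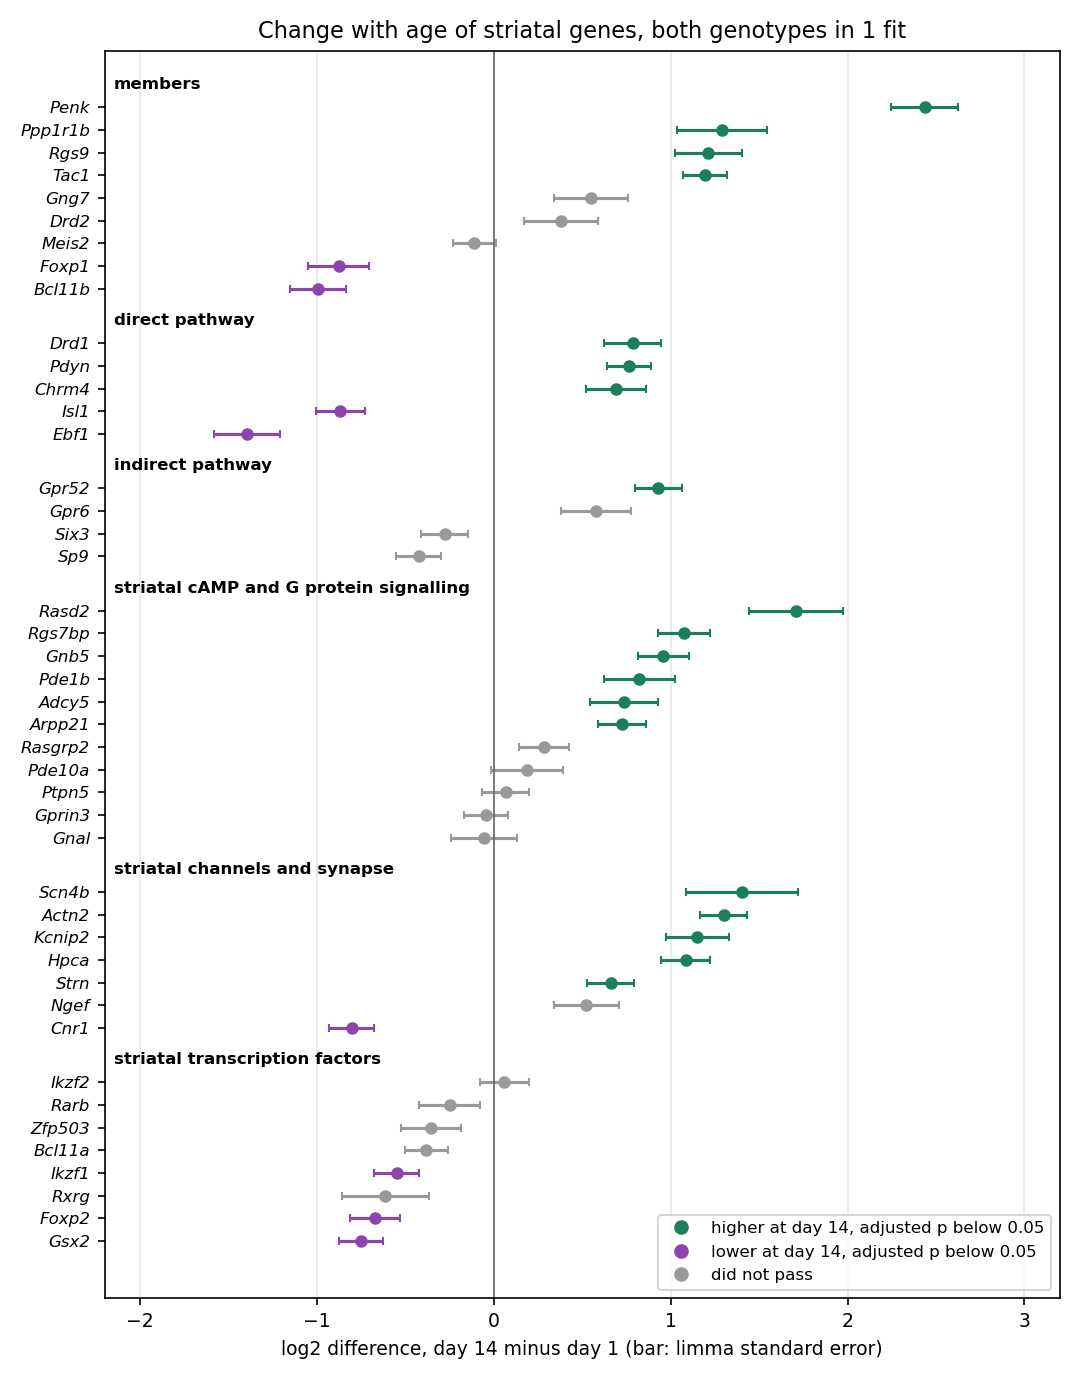
Log2 difference of day 14 from day 1 with its limma standard error for the 9 members and the 35 other striatal genes, grouped by list and coloured by call. Penk (2.44) lies farthest right and Ebf1 farthest left, and Bcl11b, Foxp1, Isl1, Ebf1, Foxp2, Gsx2, Ikzf1 and Cnr1 are the genes called lower.

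Between the genotypes 0 of these 35 genes were called (0.672% of all genes). An unadjusted limma p below 0.05 was found for 4, Isl1, Ebf1, Gpr6 and Rarb (5.92% of all genes). The log2 difference was positive for 29 of 35 (median 0.16), against 9010 of all 19938 genes. Without either day 14 array 22 of 35 were positive (median 0.0637) and 0 were called, and without either day 7 array 3 were called higher. The values farthest from 0 were those of Rarb, a retinoic acid receptor (0.56 ± 0.38, SD, n = 3), Rxrg, its partner (0.44 ± 0.66), Ebf1 (0.42), Gpr6 (0.40 ± 0.49), Isl1 (0.39) and Rasd2 (0.39 ± 0.73), with limma adjusted p from 0.22 for Rarb to 0.983 for Rasd2. At day 14 Scn4b was higher by 1.3 and Rasd2 by 1.22 in the null array, with log2 levels of 8.50 and 10.39 in null against 7.2 and 9.17 in wildtype tissue. These were the largest of the 35 differences at that age. List medians at day 14 ran from 0.26 (indirect pathway) to 0.40 (cyclic AMP and G protein signalling), beside 0.81 for the members. The null array was lower for 1 of 4 indirect pathway genes, 2 of 11 signalling genes and 2 of 8 transcription factors. It was lower for 0 of 5 direct pathway genes and 0 of 7 channel and synapse genes.

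Markers of other neurons had medians nearer to 0 at day 14. At that age the median null minus wildtype log2 difference was -0.05 over 12 markers of neurons of any kind, 0.04 over 9 of cortical projection neurons, -0.13 over 3 of GABAergic neurons, 0.09 over 8 of interneurons and -0.18 over 10 of Dlx-lineage neuroblasts, beside 0.81 over the members and -0.02 over all genes. Tests of the differences between these medians were not made. The 3 GABAergic markers did not move together. Gad1, the GABA-synthesising enzyme that projection neurons also express, had a log2 difference of -0.66, Gad2 of -0.13 and Slc32a1 of 0.30. At day 7 medians lay below 0 for neurons of any kind (-0.29, 12 of 12 below 0), neuroblasts (-0.22, 9 of 10) and cortical projection neurons (-0.16, 5 of 9). Lists of other cells did so too, among them astrocytes and radial glia (-0.33, 8 of 10) and oligodendrocytes (-0.24, 8 of 9). Of all genes 63.4% lay below 0 at that age (median -0.06), and the striatal transcription factor list had a median of 0.01.

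Other cell types did move in the same arrays. At day 14 the null array was higher for 7 of 7 microglial markers, by a median log2 difference of 0.64, and for 6 of 6 endothelial markers (0.18), while Gfap, an astrocyte filament, was higher by 1.27. The median was 0.09 over 10 markers of astrocytes and radial glia and -0.28 over 9 of oligodendrocytes. The microglial mean log2 level ran from 7.98 to 9.03 over the null arrays and from 8.09 to 8.50 over the wildtype arrays. Choroid plexus markers were lower in 8 of 8 at each age. The part of these cell types in the members' differences was not tested.

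**Figure D4:**
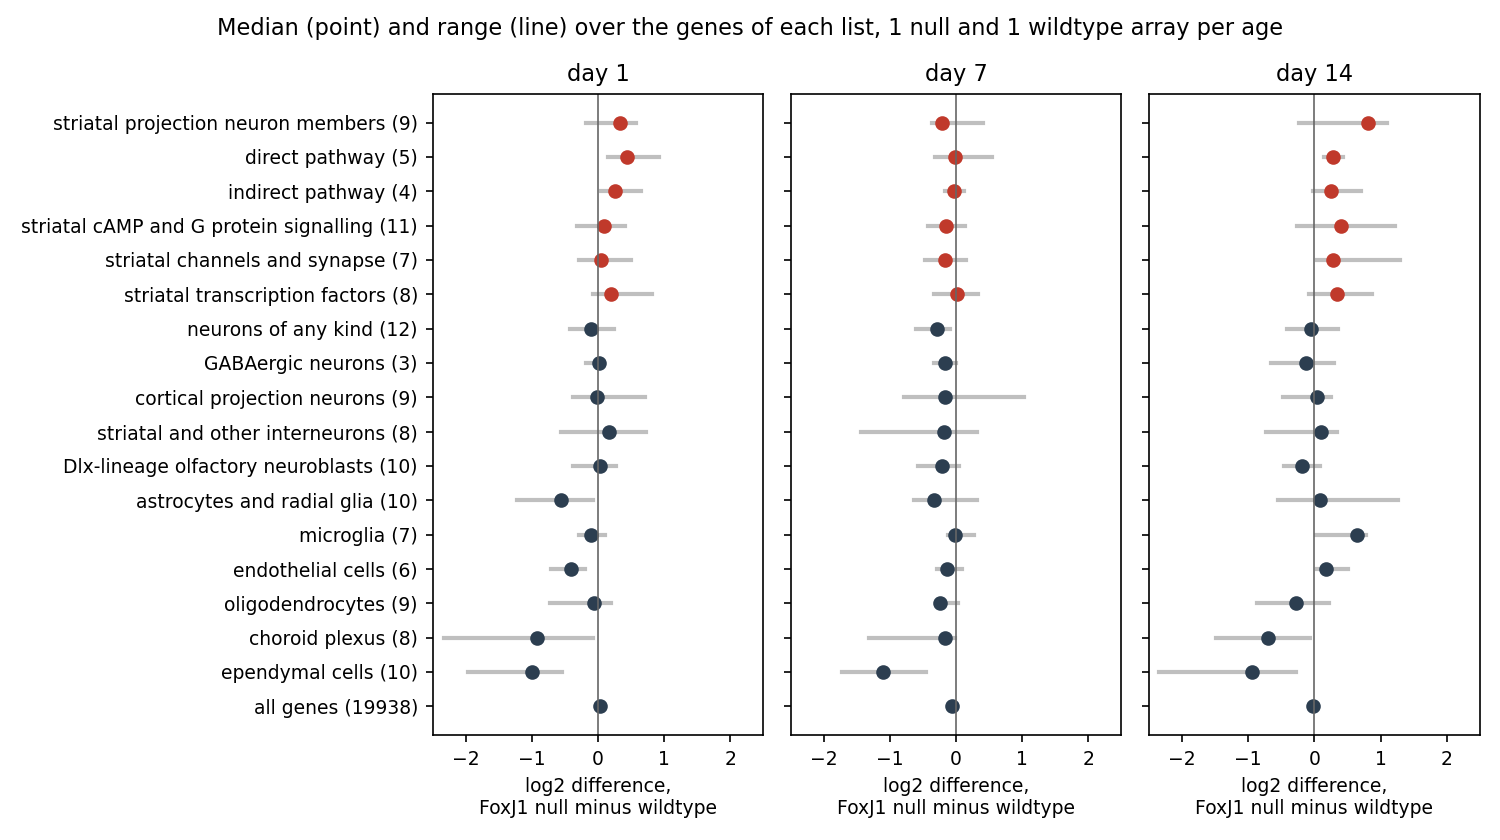
Median (point) and range (line) of the log2 difference between the FoxJ1 null and the wildtype array over the genes of each list at days 1, 7 and 14, with the number of genes in brackets and the median alone for all genes. The members have the rightmost median at day 14 (0.81), followed by the microglial list (0.64), and ependymal and choroid plexus lists lie left of 0 at each age.

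With age, too, other lists changed. Between days 14 and 1, 7 of 12 markers of neurons of any kind rose, Eno2 by 1.62 and Camk2a by 1.36 on the log2 scale, and 4 fell, among them Gap43 (-1.08) and Stmn2 (-1.0), genes of growing axons. Among 9 cortical projection neuron markers 1 rose and 4 fell, including Neurod6 (-2.51) and Tbr1 (-2.03). Of 10 neuroblast markers 0 rose and 7 fell, Sox11 by 1.89 and Cd24a by 1.46 on the log2 scale. Mag, a myelin gene, was higher by 4.79 on the log2 scale, the highest value among all genes tested. The share of these cell types in the rise of the members was not tested.

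Across the 6 arrays the members fell into groups that moved together. Ppp1r1b and Rgs9 had a Pearson r of 0.98 over the 6 arrays, Ppp1r1b and Gng7 0.96, Drd2 and Gng7 0.96, Penk and Tac1 0.93, and Bcl11b and Foxp1 0.97, whereas Penk and Bcl11b had -0.82. The arrays share ages and captures, so these values are descriptions of 6 points.

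The mean profile of the members, each taken relative to its own mean, was -0.05, -0.23 and 0.67 in null tissue of days 1, 7 and 14 and -0.35, -0.11 and 0.07 in wildtype tissue (log2). Among 2668 other genes with an SD of at least 0.3 over the 6 arrays, the most alike was Itpka, an inositol trisphosphate kinase (r = 0.98). Gpr6, Pde1b, Drd1 and Scn4b, 4 genes of the striatal lists, stood among the first 12 (r between 0.96 and 0.97). The others of these 12 were C2cd2l, Nr1d1, C1qc, Pianp, Dbp, Cxcl5 and Sash1. Of the striatal list genes compared, Cnr1 (r = -0.71), Foxp2 (-0.47), Isl1 (-0.45), Gsx2 (-0.44), Ebf1 (-0.38) and Ikzf1 (-0.14) had a negative r. The profile averages members that rose with age and members that fell. Nr1d1 and Dbp encode transcription factors of the circadian clock, and their log2 levels were 10.77 and 10.17 on the null day 14 array against 10.07 and 9.54 on its wildtype partner. C1qc is a complement gene of microglia.

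None of the members' probe sets (0 of 9) was among the 52 in the authors' deposited table of linear values.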

How the data were processed

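The files held log2 levels of 35557 probe sets on 6 Affymetrix arrays, which the authors obtained with RMA according to the labels (per the submitters' processing notes). Linear intensity for 52 probe sets, deposited in another table, matched the antilog of those levels within a relative 3.4e-06. The software of the RMA step and the genome build of the arrays are not given in the sources used here. RMA gives no detection call, and the number of arrays limits the precision. Array medians lay between 7.72 and 7.81.

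Of the probe sets, 21789 named 1 gene in the platform annotation, 1621 named several and 12147 named none. The RefSeq table of GRCm38.p6 held the Entrez id of 21698 and changed 0 symbols. The brightest probe set per gene gave 19938 genes, with no filter on dim genes. The others were left out.

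Genotype and age were fitted in 1 limma model (limma 3.58.1, R 4.3.3) with age as a 3-level factor, which pairs null and wildtype arrays by age, with 2 residual and 7.51 prior degrees of freedom. For slopes, a model of genotype, day and their product was fitted. Tests were 2-sided, adjusted p is by Benjamini-Hochberg over all 19938 genes, and the threshold was 0.05. No test was made at single ages, and the log2 threshold of 0.5 used there was chosen after the values were seen. The code was tested on simulated data.

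Members, lists and tests were chosen with earlier results of these data known. Of 132 other list entries 127 were measured. All members were named, and from each other striatal list the genes that passed, up to 6, and the 2 farthest from 0 by genotype and by age. From marker lists up to 4 genes were named where set beside a result. The 12 genes most like the members' mean profile were ranked by Pearson r. Alternatives included centring each array, a further quantile normalization, leaving out genes below the median level, averaging probe sets, an intensity trend, Xist as a covariate, other forms of age or genotype, and leaving out arrays. Day as a linear term for the age comparison, with and without the 2 high-Xist arrays, was added after the data were seen. Figures were drawn with matplotlib 3.10.9 in Python 3.11.15.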

Additional observations from a re-analysis of the deposited data

Results flagged for a closer look

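For 6 members the null minus wildtype difference had opposite signs at days 7 and 14, with 1 pair of arrays at each age, and the difference between the ages was not tested. The log2 difference at day 14 exceeded that at day 7 by 1.35 for Ppp1r1b, 1.05 for Gng7, 1.04 for Drd2, 0.84 for Rgs9, 0.64 for Bcl11b and 0.60 for Penk. The day 7 null array was 1 of the 2 with high Xist, and its part in these values was not tested.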

How the results depend on the processing

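Without single arrays, the count of genes called ran from 1344 to 3255 for day 14 against day 1 (2751 as reported), from 0 to 456 for day 7 against day 1 (12), from 291 to 1587 for day 14 against day 7 (840) and from 0 to 9 for slopes (0). Genotype calls (134) numbered 16 without genes below the median level, 45 with age, which pairs the arrays, left out, and 66 without the 2 high-Xist arrays with day linear. For day 7 against day 1 the count was 6 after quantile normalization, 67 with centred arrays, 77 without dim genes and 0 with genotype left out. Centring gave 505 higher and 619 lower genes for day 14 against day 7, against 467 and 373 as reported.

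Log2 values that changed sign without 1 array ranged as follows: the genotype difference of Penk from -0.0604 to 0.385, the day 14 against day 1 difference of Drd2 from -0.0036 to 0.76, and the day 7 against day 1 differences of Drd2 from -0.57 to 0.23, Ppp1r1b from -0.25 to 0.84 and Gng7 from -0.32 to 0.49. Slope differences ranged from -1.10 to 1.86 for Drd2, -2.27 to 1.39 for Penk, -1.29 to 2.08 for Ppp1r1b, -0.51 to 0.85 for Tac1, -0.45 to 1.61 for Rgs9, -0.72 to 1.54 for Gng7, -0.33 to 0.74 for Bcl11b, -0.20 to 1.06 for Foxp1 and -0.34 to 0.19 for Meis2. Those of Penk and Meis2 also turned after quantile normalization (0.013 and 0.24) and with Xist as a covariate (0.33 and 0.0080). None of these was called in either direction under those settings, except Drd2 at day 14 against day 1 without the wildtype day 14 array. The causes were not tested. Penk, Tac1, Ppp1r1b, Rgs9 and Bcl11b kept their day 14 against day 1 calls in all 15 alternatives, and Foxp1 in 13.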
